A study of Mus musculus with 32 samples.

Results

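Solute carriers are membrane proteins that move amino acids, sugars, metals, vitamins, organic ions, lipids and metabolites across the plasma membrane and the membranes of organelles. The genes described here are those whose symbol starts with Slc and a digit or with Slco, apart from 2 that are not reported here, and that were detected on at least 8 of 32 liver arrays. Of 217 such symbols on the array 180 met this rule and 37 did not, and these 180 members stand among 8854 named genes measured in all. The members nearest the rule were Slc30a4 and Slc35g3, detected on 8 arrays each, and just outside it lay Slc26a6 and Slco4a1, detected on 7 arrays each. The brightest probe stood for each gene, and 120 of the 180 members were detected on all 32 arrays.

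All livers came from female ApoE3Leiden mice, transgenic for the Leiden form of human apolipoprotein E3, whose slow clearance of remnant lipoproteins lets blood cholesterol follow the diet. Every animal received the high cholesterol diet, abbreviated HC. The 4 groups of 8 livers were HC+RSV+EZE, fed the diet with both drugs of the study's title, rosuvastatin and ezetimibe, HC+EZE, fed it with ezetimibe, HC+RSV, fed it with rosuvastatin, and HC, fed the diet alone as the control. Doses, duration and age are not given in the sources used here. RNA of each liver was hybridised to its own Illumina bead array, and the values below are log2 intensities after background correction and quantile normalisation, which compare 1 gene across livers and not 1 gene with another.

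Rosuvastatin blocks the rate-limiting enzyme of cholesterol synthesis and enters hepatocytes through organic anion carriers of the Slco family. Ezetimibe blocks the sterol carrier NPC1L1, which takes up cholesterol in the intestine. The hepatocyte itself depends on solute carriers for glucose release, for amino acid and ammonia handling, for import of bilirubin, hormones and drugs from blood, and, through the Slc25 family of the mitochondrial inner membrane, for the exchange of metabolites between cytosol and mitochondrion.

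Each array detected between 152 and 174 of the 180 members. The mean number was 159 ± 4 in HC+RSV+EZE, 159.6 ± 4.4 in HC+EZE, 161 ± 7 in HC+RSV and 161.5 ± 5.4 in HC (SD, n = 8 each). Of 8 hepatocyte markers 7 were measured, and all 7 were detected on all 32 arrays. The arrays lay on 6 chips of 5 or 6 arrays, each with all 4 groups. All arrays without ezetimibe sat at chip positions A to C and all arrays with it at positions F to H, so ezetimibe and position cannot be told apart. The 4 arrays that correlated least with the others were replicate 3 of HC+RSV at 0.926, replicate 1 of HC at 0.937, replicate 8 of HC at 0.949 and replicate 1 of HC+EZE at 0.951.

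The 1 member that passed the threshold in any drug comparison did so with ezetimibe. In the 16 livers with ezetimibe against the 16 without, 1 of 180 members, Slc5a6, passed an adjusted p under 0.05 (limma, Benjamini-Hochberg over all genes), which is 0.556% of the members where 0.339% of all genes passed. At an unadjusted p under 0.05 there were 18 members, or 10%, against 9.44% of all genes. Of these 9 were higher with ezetimibe, against a background of 3.91%, and 9 were lower, against 5.53%. Each of these is 5% of the members, and the share of members at an unadjusted p under 0.05 was close to that of all genes. The median difference was 0.00 over the members and 0.00 over all genes. Of all genes 4322 lay above 0 and 4532 below, and of the members 87 and 93. The splits of single classes around 0 given below were not tested.

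Slc5a6 encodes the sodium-dependent multivitamin transporter, which imports biotin, pantothenate and lipoate. Its log2 intensity was lowest 8.46, median 8.76 and highest 8.95 in HC+RSV+EZE livers and 8.64, 8.79 and 9.14 in HC+EZE livers. In livers without ezetimibe the same values were 7.58, 8.13 and 8.77 for HC+RSV and 7.89, 8.15 and 9.13 for HC. All 16 livers with ezetimibe lay above the median of those without, but the groups overlapped, since several livers without ezetimibe reached the range of those with it. Slc5a6 averaged 8.78 ± 0.18 with ezetimibe and 8.22 ± 0.42 without (SD, n = 16 each), so the livers without ezetimibe were also the more spread. It rose by 0.56 ± 0.11 (SE), a 1.48-fold difference with a 95% interval of 0.33 to 0.79 on the log2 scale and an adjusted p of 0.00939 by limma.

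The Slc5a6 difference was positive within each of the 6 chips, from 0.15 on chip 5 to 0.90 on chip 4. By position its mean was 8.82 at F, 8.82 at G and 8.72 at H, against 8.18 at A, 8.16 at B and 8.37 at C. Without the 4 arrays of lowest correlation it was 0.62 ± 0.11, with an adjusted p of 0.00254 by limma. With the arrays scaled to equal medians, where the median of all genes was itself lower by 0.12 with ezetimibe, the difference was 0.37 ± 0.16 and no longer passed (adjusted p 0.248, limma), which is 0.50 above the shift of all genes. With array position as a covariate the sign turned, to -0.37 ± 0.64, and the same covariate turned the signs of Slc30a10 and Slc45a3 below. In the single comparisons the log2 difference of Slc5a6 was 0.47 ± 0.16 for HC+RSV+EZE over HC, 0.57 ± 0.16 for HC+EZE over HC and 0.55 ± 0.16 for HC+RSV+EZE over HC+RSV, none of which passed after adjustment. The first and second of these share the HC livers. The interaction of the drugs on Slc5a6 was -0.02 ± 0.23.

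**Figure D1:**
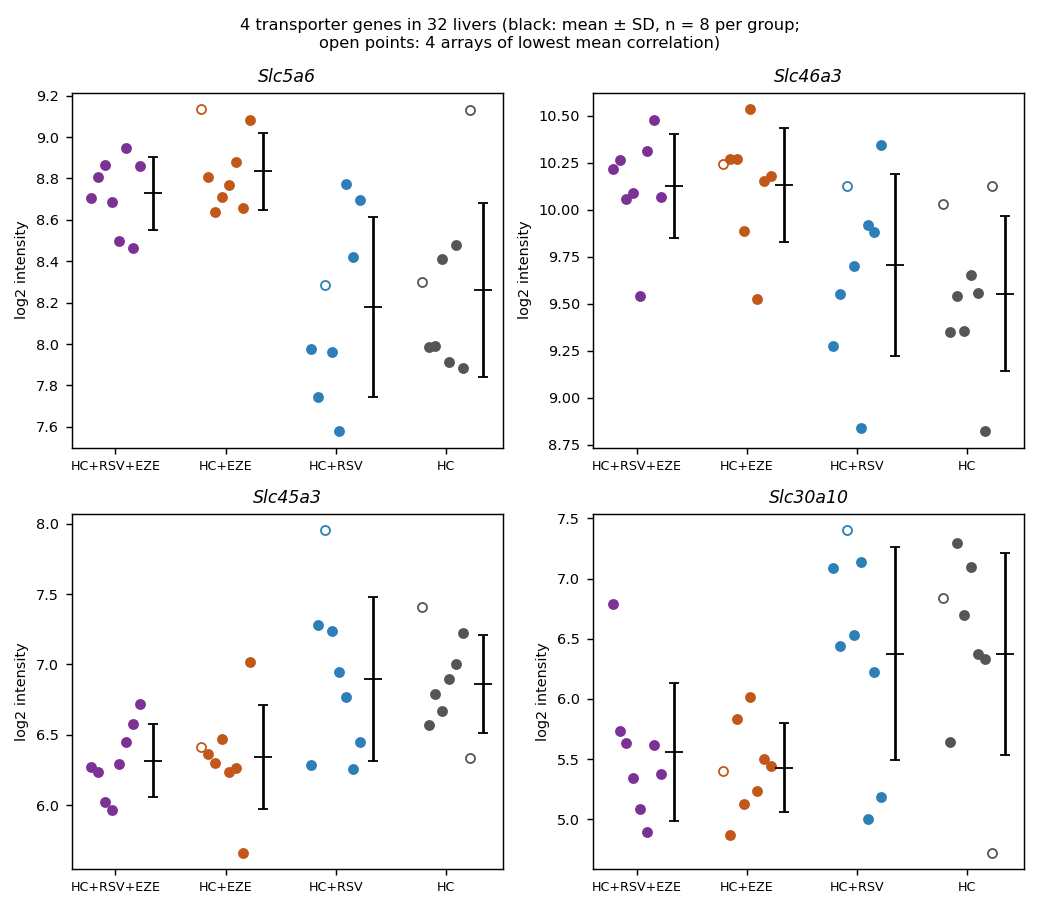
Log2 intensity of Slc5a6, Slc46a3, Slc45a3 and Slc30a10 (y axes) in 8 livers of each group (x axes), with the mean and SD in black and the 4 arrays of lowest mean correlation as open points. Slc5a6 and Slc46a3 sit higher and Slc45a3 and Slc30a10 lower in most livers with ezetimibe, and all 4 genes overlap between the groups.

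Shown here are the promoters of 3 genes, the called member and the 2 members with the largest lower values in the ezetimibe comparison. Slc46a3, with a smaller unadjusted p than Slc30a10 there, is not among them. Of the 180 members 143 had a promoter in RefSeq's table for GRCm38.p6. The 250 bases before the start are printed 5′ to 3′, on the gene's strand, and capitals mark matches on either strand to 4 motifs. These were the GC box GGGCGG, the metal response element core TGCGCNC, the E-box CACGTG and the nuclear receptor half-site AGGTCA.
Slc5a6, first of 2 starts, chr5:31048563-31048812, minus strand: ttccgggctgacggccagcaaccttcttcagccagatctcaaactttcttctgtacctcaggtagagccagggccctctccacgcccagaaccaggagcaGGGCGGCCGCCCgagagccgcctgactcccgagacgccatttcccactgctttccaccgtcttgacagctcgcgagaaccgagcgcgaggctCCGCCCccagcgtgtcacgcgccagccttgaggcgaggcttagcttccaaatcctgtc
Slc45a3, first of 2 starts, chr1:131962665-131962914, plus strand: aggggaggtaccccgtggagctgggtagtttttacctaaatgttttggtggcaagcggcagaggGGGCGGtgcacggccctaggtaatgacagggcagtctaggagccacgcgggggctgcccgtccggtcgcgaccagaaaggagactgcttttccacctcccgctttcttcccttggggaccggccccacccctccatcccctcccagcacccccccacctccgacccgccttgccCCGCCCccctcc
Slc30a10, chr1:185454598-185454847, plus strand: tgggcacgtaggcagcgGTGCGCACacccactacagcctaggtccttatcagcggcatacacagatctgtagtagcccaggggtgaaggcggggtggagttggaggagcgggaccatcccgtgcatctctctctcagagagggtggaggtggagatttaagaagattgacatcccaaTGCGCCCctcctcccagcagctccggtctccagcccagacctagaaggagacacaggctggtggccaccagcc

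The Slc5a6 promoter held 3 GC boxes and the Slc45a3 promoter 2, a motif found in 57.5% of the 200 promoters of members and in 32.7% of all 32851 promoters of this length. Slc30a10 had 3 matches to the metal response element core, 2 of which overlap as the same letters read on both strands, and this core occurred in 15.5% of members' promoters and 12.5% of all. None of the 3 windows held the E-box, present in 12.5% of members' promoters and 6.02% of all, or the half-site, present in 14.0% of each. The 32851 promoters were not limited to the 8854 genes measured here, whereas members had to be detected. The 2 sets therefore differ in more than gene family, and the shares do not show a trait of solute carriers. These matches are descriptions of the sequence.

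The class of vitamin and nucleoside carriers had 9 members, of which Slc5a6 passed and 3 were at an unadjusted p under 0.05, all of them higher with ezetimibe. Of all genes 0.339% passed, and 3.91% were higher at an unadjusted p under 0.05. The class had a median ezetimibe difference of 0.06, with 5 members above 0 and 4 below. Slc46a3, a carrier of the lysosomal membrane, had a lowest, median and highest value of 9.54, 10.15 and 10.48 in HC+RSV+EZE, 9.53, 10.21 and 10.54 in HC+EZE, 8.84, 9.79 and 10.35 in HC+RSV and 8.82, 9.55 and 10.13 in HC. With ezetimibe 14 of 16 livers lay above the median of those without, and the lowest liver with ezetimibe stood within the range of the others. The difference was 0.50 ± 0.13, or 1.42-fold, with an adjusted p of 0.0868 (limma), and within chips it ran from 0.01 to 1.07. Without the 4 arrays of lowest correlation it was 0.61 and passed, with an adjusted p of 0.0213 (limma). With a fixed term for chip it was 0.48 and did not pass (adjusted p 0.0734, limma). Slc23a2, a sodium-dependent ascorbate transporter, was the third such member. It averaged 6.55 with ezetimibe and 6.20 without, and was chosen after its values were seen.

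Slc19a2, a thiamine transporter, and Slc29a1, an equilibrative nucleoside transporter, varied most within groups in this class. Slc19a2 reached 10.30 in HC+RSV+EZE, 9.94 in HC+EZE, 11.28 in HC+RSV and 10.49 in HC, while its group means lay between 9.24 and 9.45. Slc29a1 had group means between 8.37 and 8.61. Both means differed less than the livers within a group did. Means of 8 livers vary less than single livers in any case, so here and below this does not show that groups are alike.

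Metal and heme carriers were represented by 23 members, 15 below 0 and 8 above it in the ezetimibe comparison, with a median of -0.03. Slc30a10 is the manganese exporter by which hepatocytes excrete manganese into bile. Its lowest, median and highest values were 4.90, 5.50 and 6.79 in HC+RSV+EZE and 4.87, 5.42 and 6.01 in HC+EZE. Without ezetimibe they were 4.999, 6.48 and 7.40 in HC+RSV and 4.72, 6.54 and 7.29 in HC. The livers with ezetimibe lay below the median of those without in 15 of 16 cases, yet the lowest liver of all was replicate 8 of HC. Its mean was 5.49 ± 0.47 with ezetimibe and 6.38 ± 0.84 without (SD, n = 16 each), a difference of -0.88 ± 0.23, or 1.84-fold lower, with an adjusted p of 0.0913 (limma). This was the lowest ezetimibe difference of the 180 members.

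Slc30a10 was among the members that differed between chips (adjusted p 0.00324, limma F-test). Within chips its ezetimibe difference was -1.17, -1.04, -1.54, -0.94, 0.17 and -1.04 on chips 1 to 6. A fixed term for chip gave -0.96 with an adjusted p of 0.00199 (limma), past the threshold. With the 4 arrays of lowest correlation left out and no chip term it was -0.90. As with all arrays, it did not pass (adjusted p 0.0637, limma). The other metal carrier at an unadjusted p under 0.05 was Slc39a6, a zinc importer, with 5.62 in ezetimibe livers and 5.86 without, a difference of -0.24 ± 0.11. Slc30a10 and Slc39a6 were thus 2 of 23 metal and heme carriers, both lower, where 5.53% of all genes were lower at such a p. Neither Slc40a1, the iron exporter ferroportin, nor Slc39a14, an importer of manganese, iron and zinc, nor Slc30a1, a zinc exporter, differed over groups at an unadjusted p under 0.05. Slc40a1 averaged 11.40 ± 0.25 in HC+RSV+EZE, 11.48 ± 0.43 in HC+EZE, 11.56 ± 0.40 in HC+RSV and 11.80 ± 0.55 in HC. Slc39a14 averaged 5.32 ± 0.45 in HC+RSV+EZE, 5.19 ± 0.49 in HC+EZE, 5.14 ± 0.45 in HC+RSV and 5.04 ± 0.31 in HC.

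The 15 sugar carriers had a median ezetimibe difference of 0.01. Slc45a3, a member of a family of sugar transporters, stood furthest below. Its lowest, median and highest values were 5.97, 6.28 and 6.72 in HC+RSV+EZE, 5.66, 6.33 and 7.02 in HC+EZE, 6.26, 6.86 and 7.95 in HC+RSV and 6.34, 6.84 and 7.41 in HC. In 15 of 16 ezetimibe livers it lay below the median of the livers without, and 5 lay below all of those. The difference was -0.55 ± 0.14, or 1.47-fold lower, with an adjusted p of 0.0743 (limma), and it was negative on all 6 chips, between -0.19 and -1.07. A fixed term for chip gave -0.59 with an adjusted p of 0.00916 (limma), past the threshold. Without the 4 arrays of lowest correlation Slc45a3 was at -0.48 and did not pass (adjusted p 0.113, limma).

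Slc2a9, which carries urate, averaged 6.50 ± 0.52 with ezetimibe and 6.12 ± 0.47 without (SD, n = 16 each), a difference of 0.38 ± 0.17. Its adjusted p was 0.458 (limma), and the other 2 probes of Slc2a9, detected on 9 and 19 arrays, gave 0.09 ± 0.09 and 0.03 ± 0.12. The carriers at the centre of hepatic glucose output differed less. Slc2a2, the glucose transporter GLUT2 of the hepatocyte surface, averaged 10.23 ± 0.27 in HC+RSV+EZE, 10.29 ± 0.39 in HC+EZE, 10.29 ± 0.55 in HC+RSV and 10.42 ± 0.67 in HC. Slc37a4, which brings glucose 6-phosphate into the endoplasmic reticulum, averaged 6.40 ± 0.57 in HC+RSV+EZE, 6.56 ± 0.42 in HC+EZE, 6.37 ± 0.35 in HC+RSV and 6.49 ± 0.48 in HC. Slc5a1, a sodium glucose cotransporter, was near the detection limit and was detected on 15 arrays.

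**Figure D2:**
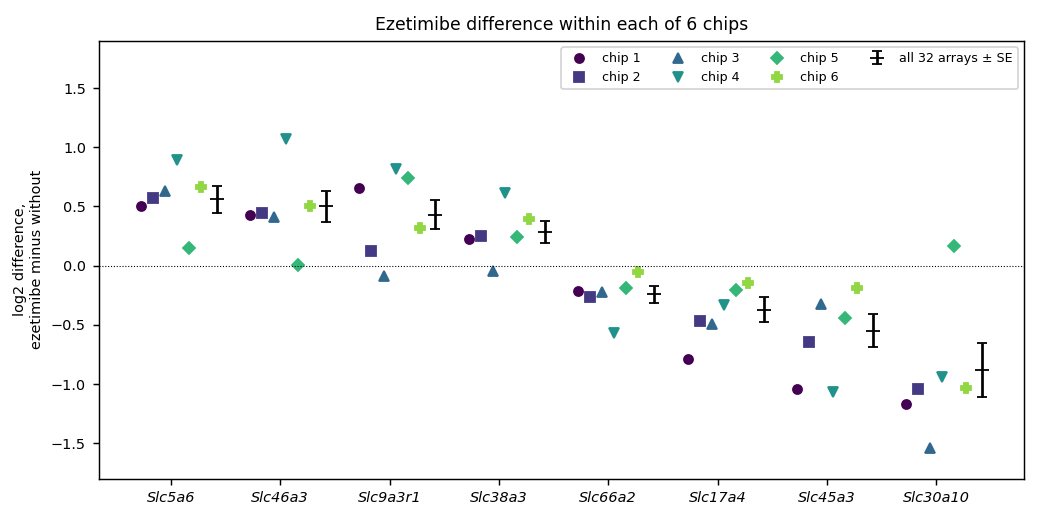
Log2 difference of ezetimibe livers minus livers without within each of 6 chips (coloured points, y axis) for the 8 members with the smallest p in that comparison (x axis), with the fitted difference over all 32 arrays and its SE in black. Slc5a6, Slc46a3, Slc66a2, Slc17a4 and Slc45a3 keep 1 sign on all 6 chips, while Slc9a3r1, Slc38a3 and Slc30a10 each change sign on 1 chip.

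Amino acid carriers formed the largest class, with 32 members, 20 above 0 and 12 below in the ezetimibe comparison and a median of 0.04. At an unadjusted p under 0.05, 1 was higher and 2 were lower, against 3.91% and 5.53% of all genes. Slc38a3, the glutamine transporter SNAT3 of the hepatocyte, was the higher one, with a lowest, median and highest value of 10.96, 11.35 and 11.77 in HC+RSV+EZE and 11.12, 11.30 and 11.63 in HC+EZE. In HC+RSV the values were 10.71, 11.26 and 11.51, and in HC 10.69, 11.02 and 11.27. With ezetimibe 15 of 16 livers lay above the median of those without, although the ranges overlapped. The difference was 0.29 ± 0.09 with an adjusted p of 0.232 (limma). Slc66a2, of a family of lysosomal amino acid carriers, averaged 10.32 ± 0.16 with ezetimibe and 10.56 ± 0.22 without (SD, n = 16 each). All 16 ezetimibe livers lay below the median of the others, the difference was -0.24 ± 0.07 and the adjusted p 0.201 (limma).

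Among other amino acid carriers of the liver, group means mostly differed by less than the livers within a group. Slc38a4, a system A transporter of neutral amino acids, averaged 8.14 ± 0.43 in HC+RSV+EZE, 8.03 ± 0.29 in HC+EZE, 7.90 ± 0.36 in HC+RSV and 8.25 ± 0.51 in HC. Slc38a2, another system A transporter, averaged 8.48 ± 0.32 in HC+RSV+EZE, 8.30 ± 0.18 in HC+EZE, 8.23 ± 0.49 in HC+RSV and 8.29 ± 0.39 in HC. Slc7a2, which takes up arginine and other cationic amino acids, averaged 8.26 ± 0.17 in HC+RSV+EZE, 8.44 ± 0.33 in HC+EZE, 8.23 ± 0.50 in HC+RSV and 8.18 ± 0.42 in HC. The betaine transporter Slc6a12, the glycine transporter Slc6a9 and the aromatic amino acid carrier Slc16a10 had adjusted p-values of 0.999 over the 4 groups (limma F-test). Slc1a2, the glutamate transporter GLT-1 that marks pericentral hepatocytes, ranged from 6.74 to 9.60 over HC livers alone, while its 4 group means lay between 8.41 and 8.58. Slc1a1, a glutamate transporter near the detection limit, had 4.81 in HC+RSV+EZE and 4.49 in HC+RSV, a difference of 0.31 ± 0.15.

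Organic ion carriers, 26 in all, include the uptake carriers for drugs and hormones and the exporters of organic cations. Their median ezetimibe difference was 0.02, with 14 above 0 and 12 below. At an unadjusted p under 0.05, 2 were lower, against 5.53% of all genes. Slc17a4, a carrier of phosphate and organic anions, had lowest, median and highest values of 7.08, 7.29 and 7.70 in HC+RSV+EZE, 7.01, 7.35 and 7.79 in HC+EZE, 7.58, 7.72 and 8.75 in HC+RSV and 7.19, 7.54 and 8.10 in HC. The ezetimibe difference was -0.37 ± 0.11 with an adjusted p of 0.156 (limma), and 13 of 16 ezetimibe livers lay below the median of the others. Slc17a8, a vesicular glutamate transporter, averaged 5.76 ± 0.46 with ezetimibe and 6.14 ± 0.42 without (SD, n = 16 each), a difference of -0.38 ± 0.15. For HC+EZE over HC, Slc17a6, also a vesicular glutamate transporter, averaged 4.49 and 4.75 and was detected on 14 arrays.

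The Slco carriers varied among single livers more than among groups. Slco1b2, the rodent uptake carrier related to human OATP1B1 and OATP1B3, averaged 9.40 ± 0.64 in HC+RSV+EZE, 9.76 ± 0.53 in HC+EZE, 9.79 ± 0.58 in HC+RSV and 9.86 ± 0.81 in HC. Slco1a4, an organic anion transporter of the sinusoidal membrane, averaged 6.81 ± 0.47 in HC+RSV+EZE, 6.91 ± 0.74 in HC+EZE, 6.73 ± 0.76 in HC+RSV and 6.84 ± 0.53 in HC. Slco2b1, an uptake carrier of steroid sulfates and statins, averaged 10.95 ± 0.32 in HC+RSV+EZE, 11.17 ± 0.36 in HC+EZE, 11.28 ± 0.60 in HC+RSV and 11.20 ± 0.44 in HC. Slco2a1, the prostaglandin transporter, had 7.43 in HC+RSV+EZE and 7.79 in HC+RSV, a difference of -0.36 ± 0.17 that did not pass after adjustment (adjusted p 0.681, limma). Of the Slc22 and Slc47 families, Slc22a5, the carnitine transporter, averaged 6.91 ± 0.36 in HC+RSV+EZE, 7.11 ± 0.48 in HC+EZE, 6.82 ± 0.37 in HC+RSV and 6.78 ± 0.51 in HC. Slc47a1, which exports organic cations into bile, had group means from 11.30 to 11.47, and Slc22a18, an orphan organic cation carrier, from 10.07 to 10.23.

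The mitochondrial Slc25 family had 28 members, 14 above 0 and 14 below in the ezetimibe comparison, with a median of 0.00. At an unadjusted p under 0.05, 3 were higher and 1 was lower, against 3.91% and 5.53% of all genes. Slc25a33, a carrier of pyrimidine nucleotides, averaged 8.31 ± 0.44 in HC+RSV+EZE, 8.09 ± 0.37 in HC+EZE, 7.89 ± 0.40 in HC+RSV and 7.87 ± 0.39 in HC. Its ezetimibe difference was 0.32 ± 0.14, and 7 of 16 livers with ezetimibe lay above all those without. Slc25a11, the oxoglutarate malate carrier, averaged 8.86 with ezetimibe and 8.68 without, a difference of 0.18 ± 0.08 that became -0.02 with equal medians. The other 2 Slc25a11 probes, both detected on all 32 arrays, gave 0.00 ± 0.11 and 0.04 ± 0.11. Slc25a14, an uncoupling protein homologue, had 5.41 in HC+RSV+EZE and 5.13 in HC+RSV. None of these passed after adjustment. Slc25a18, a mitochondrial glutamate carrier, had 4.76 in HC+EZE and 4.49 in HC and was detected on 11 arrays.

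By their brightest probes, the mitochondrial carriers of hepatic pathways below did not differ over groups at an unadjusted p under 0.05 (limma F-test). Of all genes 4.97% did. Over all 180 members the range of the 4 group means had a median of 0.22, and some of these carriers spanned more. Slc25a1, the citrate exporter that supplies acetyl groups for lipid synthesis, averaged 9.88 ± 0.24 in HC+RSV+EZE, 9.78 ± 0.22 in HC+EZE, 9.68 ± 0.27 in HC+RSV and 9.61 ± 0.34 in HC. Its other probe, detected on all 32 arrays, gave 0.39 ± 0.17 for HC+RSV+EZE over HC and 0.25 ± 0.12 with ezetimibe. Slc25a20, the carnitine acylcarnitine carrier of fatty acid oxidation, averaged 10.27 ± 0.23 in HC+RSV+EZE, 10.35 ± 0.44 in HC+EZE, 10.29 ± 0.26 in HC+RSV and 10.40 ± 0.36 in HC. Slc25a5, an ATP ADP exchanger, had a residual SD of 0.20 and group means from 12.27 to 12.39. For the urea cycle, the ornithine carrier Slc25a15 averaged 9.22 ± 0.50 in HC+RSV+EZE, 9.40 ± 0.20 in HC+EZE, 9.59 ± 0.63 in HC+RSV and 9.57 ± 0.34 in HC. The other Slc25a15 probe, detected on all 32 arrays, gave -0.48 ± 0.21 for HC+RSV+EZE over HC and -0.34 ± 0.15 with ezetimibe. These differences of the other Slc25a1 and Slc25a15 probes were each at an unadjusted p under 0.05 (limma). The aspartate glutamate carrier Slc25a13 averaged 5.71 ± 0.53 in HC+RSV+EZE, 5.93 ± 0.38 in HC+EZE, 5.77 ± 0.53 in HC+RSV and 5.83 ± 0.49 in HC. The other probes of Slc25a20 and Slc25a13 gave -0.05 ± 0.16 and 0.12 ± 0.12 with ezetimibe. Slc25a10, the dicarboxylate carrier, had group means from 8.92 to 9.002, and the liver carrier Slc25a47 from 11.36 to 11.61. Slc25a25, an ATP magnesium phosphate carrier, varied from 6.62 to 9.04 within HC+RSV and had a residual SD of 0.57. Slc25a42, the coenzyme A carrier, had group means from 6.41 to 6.70.

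Nucleotide sugar carriers, the Slc35 family of the Golgi and endoplasmic reticulum, had 17 members with a median ezetimibe difference of -0.08, where 13 were below 0 and 4 above. Among these Slc35e3, a carrier of unassigned substrate, averaged 7.27 with ezetimibe and 7.51 without, a difference of -0.24 ± 0.10 with an adjusted p of 0.421 (limma). Of all 8854 genes 4532 were below 0 in the ezetimibe comparison, and the split of this class was not tested. None of the 18 carriers of inorganic ions and none of the 7 of lipids and acyl groups was at an unadjusted p under 0.05 in that comparison, with medians of -0.01 and 0.00. Of all genes 9.44% were, so few or none would be looked for in classes of this size. Slc27a2, a very long chain acyl-CoA synthetase and fatty acid transport protein, averaged 10.91 ± 0.44 in HC+RSV+EZE, 11.11 ± 0.60 in HC+EZE, 11.29 ± 0.47 in HC+RSV and 11.18 ± 0.70 in HC. Slc27a4 had group means from 5.08 to 5.35 and the choline transporter Slc44a1 from 6.36 to 6.47. The Slc4a1 gene encodes the anion exchanger of red cells and averaged 6.08 ± 0.75 in HC+RSV+EZE, 5.997 ± 0.80 in HC+EZE, 5.89 ± 0.61 in HC+RSV and 5.75 ± 0.75 in HC. The summed level of 2 measured erythroid markers out of 5 listed spanned 11452 to 20326 in HC+RSV+EZE, 6354 to 17584 in HC+EZE, 7534 to 17954 in HC+RSV and 3068 to 15105 in HC, and its part in the Slc4a1 values was not tested. In bulk liver, fewer cells of a type and less RNA per cell cannot be told apart.

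Among the symbols that follow the rule by name only are 4 whose proteins are not carriers. Slc9a3r1, the scaffold protein NHERF1 that anchors membrane carriers, averaged 9.94 ± 0.28 in ezetimibe livers and 9.51 ± 0.41 in livers without (SD, n = 16 each). All 16 ezetimibe livers lay above the median of the others, and 4 lay above all of them. The difference was 0.43 ± 0.12 with an adjusted p of 0.156 (limma), and it was positive on 5 of 6 chips. The remaining 3 genes of this kind, and the unclassed Slc49a4, did not reach an unadjusted p under 0.05 in this comparison, which 9.44% of all genes did.

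**Figure D3:**
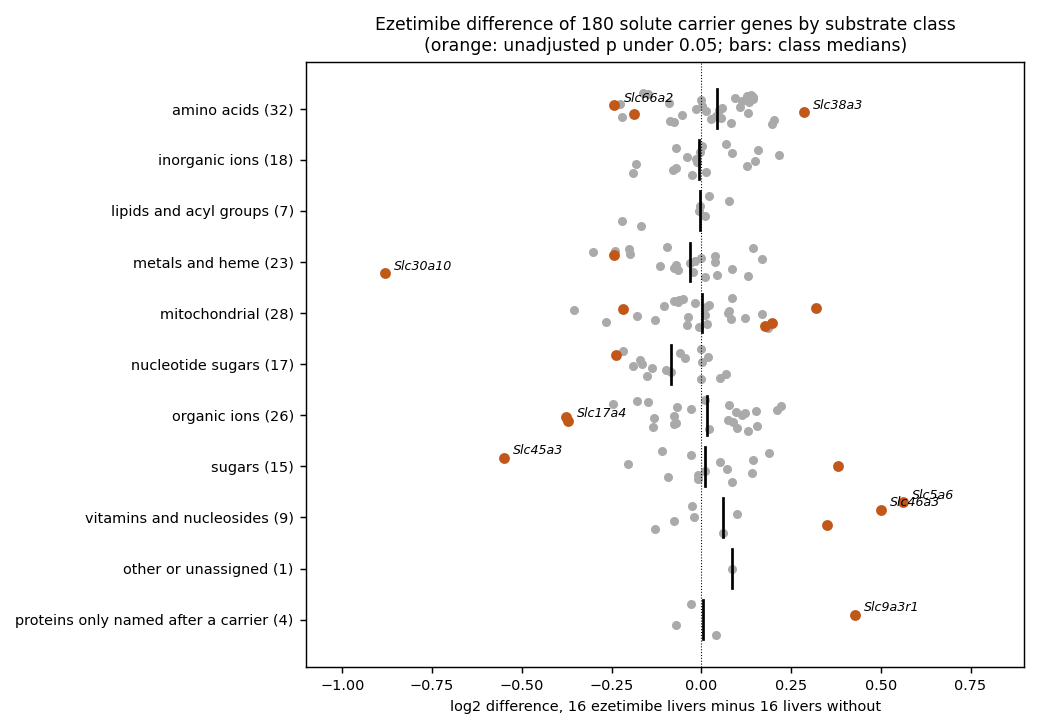
Log2 ezetimibe difference (x axis) of each of the 180 members, arranged by substrate class with the number of members (y axis), with class medians as bars and the 18 members at an unadjusted p under 0.05 in orange. Class medians for the classes of 7 or more members lie between -0.08 and 0.06, and a few single genes stand apart from them.

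Between single groups no member passed after adjustment. For HC+RSV+EZE over HC, 16 members were at an unadjusted p under 0.05, or 8.89%, against 7.43% of all genes, and 0.0452% of genes passed after adjustment. For HC+EZE over HC there were 10, or 5.56%, against 3.64%, with 0.0452% of genes past adjustment. For HC+RSV+EZE over HC+RSV there were 13, or 7.22%, against 7.33%, with 0.0565% past adjustment. For HC+EZE over HC+RSV there were 7, or 3.89%, against 4.51%, with 0.0339% past adjustment. Over all 4 groups together 11 members, or 6.11%, were at an unadjusted p under 0.05 and 0 passed after adjustment (limma F-test), against 4.97% and 0.215% of all genes. In no member did the 8 livers of a treated group lie apart from the 8 of HC, a separation found in 0.124% of genes for HC+RSV+EZE, 0.0678% for HC+EZE and 0% for HC+RSV.

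Several members were at an unadjusted p under 0.05 in both HC+RSV+EZE and HC+EZE against HC, 2 comparisons that share the HC livers. Slc30a10 differed by -0.81 ± 0.33 with both drugs and by -0.95 ± 0.33 with ezetimibe, Slc45a3 by -0.55 ± 0.20 and -0.52 ± 0.20. For Slc46a3 the differences were 0.57 ± 0.18 with both drugs and 0.58 ± 0.18 with ezetimibe. In the order both drugs and then ezetimibe, Slc66a2 had -0.36 ± 0.10 and -0.33 ± 0.10, and Slc38a3 had 0.38 ± 0.13 and 0.37 ± 0.13. In that order Slc9a3r1 had 0.50 ± 0.17 and 0.53 ± 0.17, and Slc17a8 had -0.46 ± 0.21 and -0.50 ± 0.21. For HC+RSV+EZE over HC, Slc25a33 had 0.44 ± 0.19, Slc25a34 had 0.26 ± 0.12 and Slc2a9 had 0.54 ± 0.24. Their adjusted p-values over all genes lay above the threshold in both comparisons (limma).

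HC+RSV+EZE was also compared with HC+RSV, with the same HC+RSV+EZE livers as in the comparison with HC, so the values of these 2 comparisons are not independent. Over HC+RSV, Slc30a10 differed by -0.82 ± 0.33, Slc45a3 by -0.58 ± 0.20, Slc46a3 by 0.42 ± 0.18 and Slc17a4 by -0.48 ± 0.15. Slc41a2, a magnesium transporter, had 6.35 in HC+RSV+EZE and 6.83 in HC+RSV, a difference of -0.48 ± 0.17. Slc20a2, a sodium phosphate cotransporter, had 8.51 in HC+RSV+EZE and 8.83 in HC+RSV, a difference of -0.32 ± 0.15. Slc25a33 had 0.41 ± 0.19 and Slc35e3 -0.32 ± 0.14. None passed after adjustment.

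Of the 3 treated groups HC+RSV had the fewest members at an unadjusted p under 0.05 against HC. There were 5 members, or 2.78%, against 2.65% of all genes, and 0% of genes passed after adjustment. Slc38a7, a lysosomal glutamine carrier, averaged 6.55 ± 0.22 in HC+RSV and 6.25 ± 0.27 in HC, a difference of 0.30 ± 0.13. Slc12a7, a potassium chloride cotransporter, averaged 5.87 ± 0.31 in HC+RSV and 5.51 ± 0.37 in HC, and Slc4a2, the anion exchanger AE2 that secretes bicarbonate, 8.61 ± 0.26 in HC+RSV and 8.39 ± 0.14 in HC. Slc25a34, a mitochondrial carrier without an assigned substrate, averaged 4.95 ± 0.24 and 4.67 ± 0.27. Slc11a1, the metal transporter NRAMP1 of macrophage phagosomes, averaged 10.37 ± 0.27 in HC+RSV and 10.65 ± 0.25 in HC, a difference of -0.28 ± 0.13, and the 3 other Slc11a1 probes gave -0.17 to -0.21, each with an SE over 0.2. The summed level of 6 measured macrophage markers out of 10 listed spanned 4022 to 9051 in HC+RSV and 4892 to 15483 in HC, and its part in the Slc11a1 value was not tested. Over all rosuvastatin livers against all without, Vsig4 (-0.46), Adgre1 (-0.36) and Clec4f (-0.31) were at an unadjusted p under 0.05 (limma). Of all genes 2.36% were. Lyz2 (-0.23), C1qa (-0.16) and C1qb (-0.09) were not, and none of these markers passed after adjustment. Adjusted p-values were 0.999 for all 5 members for HC+RSV over HC (limma).

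In the 16 rosuvastatin livers against the 16 without, 5 members, or 2.78%, were at an unadjusted p under 0.05, all higher, against 2.36% of all genes. They were Slc25a34, Slc38a7, Slc27a4, Slc4a3 and Slc7a4, the last 3 chosen after their values were seen. For HC+RSV+EZE over HC+EZE there were 3, or 1.67%, against 1.71%, namely Slc41a2, Slc49a4 and Slc4a3, also chosen after their values were seen. The interaction of the drugs had 2, Slc12a7 and Slc41a2, or 1.11%, against 1.72%. In these 3 comparisons 0% of genes and no member passed after adjustment. The SE of a difference between 2 groups of 8 had a median of 0.157 on the log2 scale over all genes, and that between 16 and 16 livers 0.111.

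A list of 49 known liver transporters had 39 measured members. Over the 4 groups 3 of the 39 were at an unadjusted p under 0.05, against 4.97% of all genes (limma F-test). They were Slc30a10, Slc46a3 and Slc38a3, and the smallest adjusted p among the 39 was 0.59 (limma F-test). The spread between the highest and the lowest group mean had a median of 0.25 and ran from 0.08 to 0.95 on the log2 scale. For 34 of the 39 it was smaller than the SD between livers of a group, and for all members this held for 144 of 180.

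**Figure D4:**
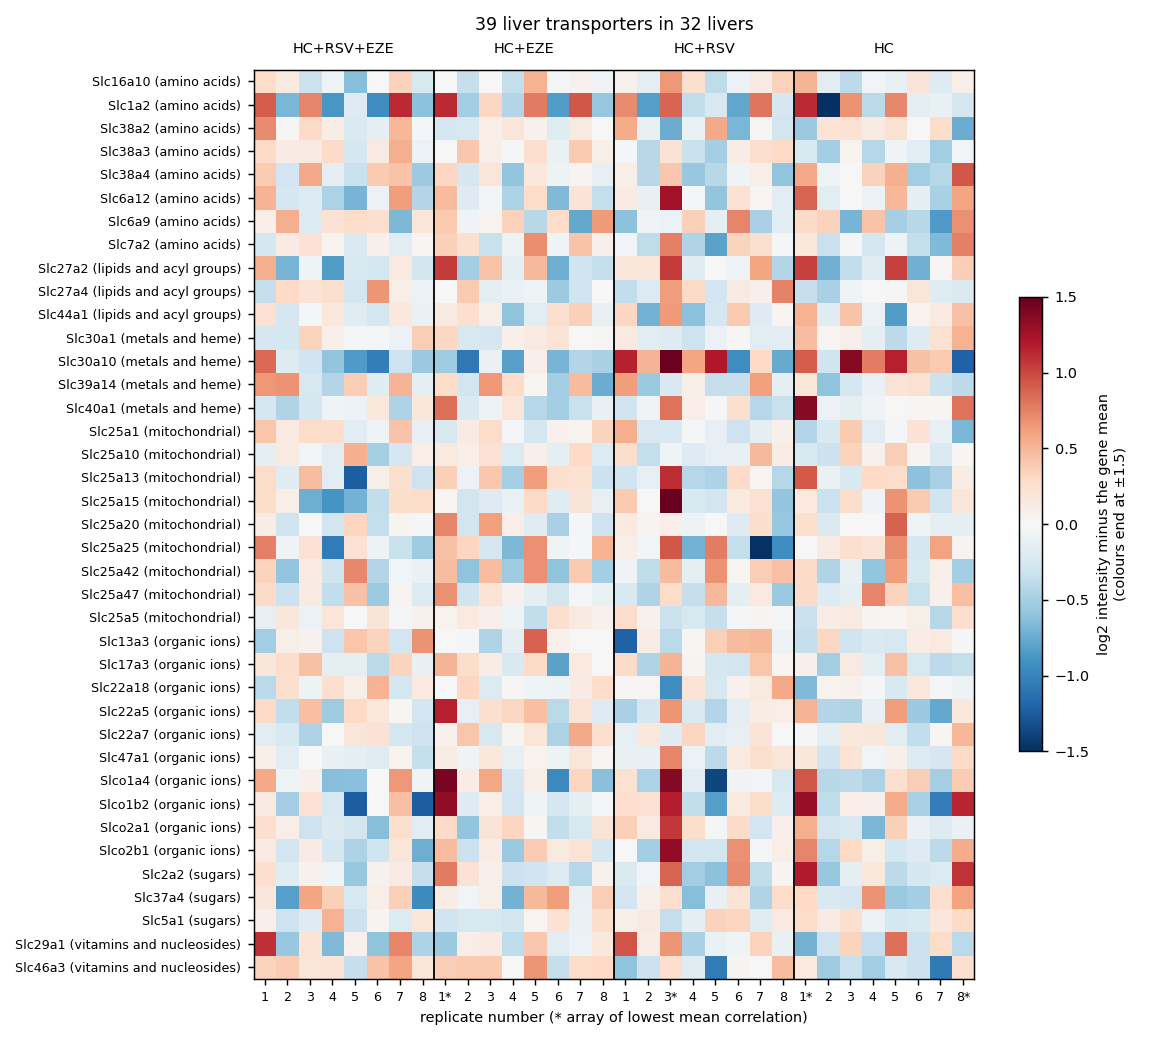
Log2 intensity minus the gene's mean over 32 livers (colour, ending at ±1.5) for 39 liver transporters (rows, with their class) in the livers of the 4 groups (columns, by replicate number, with the 4 arrays of lowest mean correlation starred). Slc30a10 is the row with the widest spread of group means, 0.95, and replicate 3 of HC+RSV and replicates 1 and 8 of HC stand out as columns.

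More members differed between chips than in any drug comparison. With group in the model 62 of 180 members, or 34.4%, differed between chips at an adjusted p under 0.05, against 27.3% of all genes (limma F-test). Among classes of 7 or more members the share was highest for carriers of inorganic ions, with 9 of 18, and lowest for nucleotide sugar carriers, with 2 of 17. No difference between these classes was tested. Slc7a11, the cystine glutamate exchanger that feeds glutathione synthesis, led with an adjusted p of 1.86e-07. Its chip means were 4.35, 5.42, 4.42, 4.42, 5.75 and 5.49 on chips 1 to 6, and it was detected on 16 arrays. The heme transporter Slc48a1 had chip means of 7.24, 8.65, 7.52, 7.63, 8.85 and 8.53, and Slc1a4, a transporter of small neutral amino acids, 5.20, 6.32, 5.54, 5.59, 6.75 and 6.60. All 3 were high on chips 2, 5 and 6 and low on chips 1, 3 and 4.

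Slc22a26, of the organic anion transporter family, showed the opposite order, with 7.13, 4.69, 6.14, 6.38, 4.57 and 4.64. It had the largest residual SD of all members, 1.22, and its group means lay between 5.51 and 5.64. Slc1a2 had chip means of 9.27, 8.03, 9.15, 8.94, 7.58 and 7.90. Slc6a19, a neutral amino acid transporter, was high on chips 1 to 3 with 5.49, 5.33 and 5.46 and lower on chips 4 to 6 with 4.63, 4.58 and 4.52. Each of these genes had an adjusted p of 0.999 over the 4 groups (limma F-test). The sources used here do not say how livers were assigned to chips. Chips 1, 3 and 4 held odd replicate numbers and chips 2, 5 and 6 even ones, so that split cannot be told apart from the numbering.

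**Figure D5:**
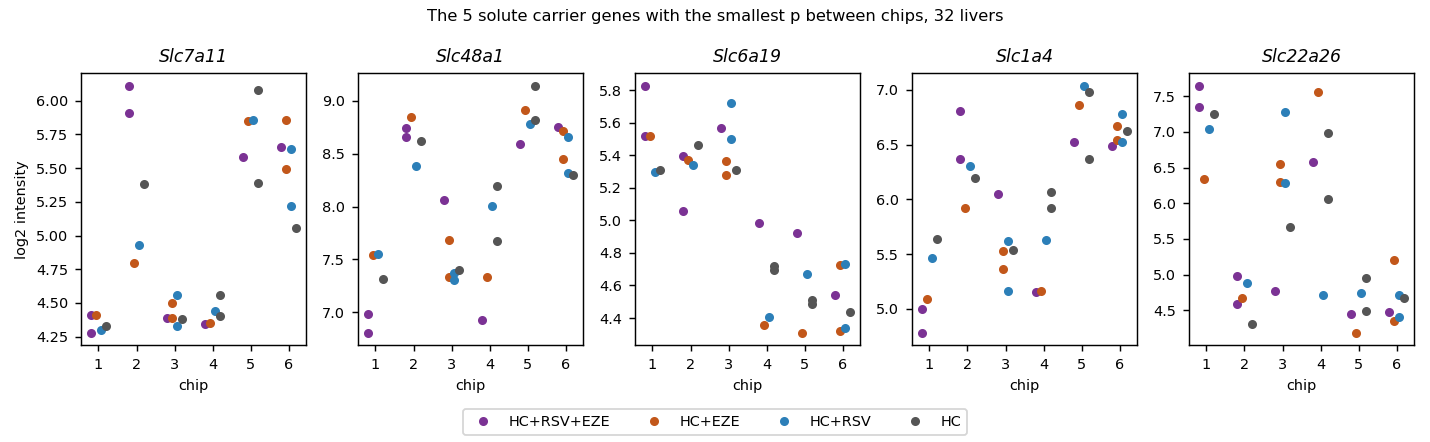
Log2 intensity (y axes) of the 5 members with the smallest p between chips, by chip (x axes) and coloured by group, for 32 livers. Slc7a11, Slc48a1 and Slc1a4 sit high on chips 2, 5 and 6, Slc22a26 mostly low there, and Slc6a19 high on chips 1 to 3.

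Single livers held many of the extreme values. Replicate 3 of HC+RSV had the highest of the 32 values in 35 members and the lowest in 11. Replicate 8 of HC had the highest in 16 and the lowest in 15, replicate 1 of HC in 13 and 6, and replicate 7 of HC in 4 and 13. The 4 arrays of lowest correlation held 29.4% of the highest and lowest values of the members and 30.0% of those of all genes, shares that lie close together. In replicate 3 of HC+RSV the copper importer Slc31a1 was at 11.41, where the next liver had 10.17, a gene chosen after its values were seen. Slc19a2 was at 11.28 there against 10.49 in the next liver, and Slco2b1 at 12.47 against 11.88. Slc40a1 was highest in replicate 1 of HC, at 12.92. Replicate 1 of HC+EZE had the highest Slco1b2, Slco1a4 and Slc22a5, at 11.04, 8.25 and 8.07.

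Outside the rule, 21 genes that work with carriers were listed, such as the chaperone basigin, the mitochondrial porins and glucose 6-phosphatase. Of these 13 were measured, and 0 passed the adjusted threshold in the ezetimibe comparison, against 0.339% of all genes. At an unadjusted p under 0.05 there were 2, both lower, against 9.44% of all genes, of which 5.53% were lower and 3.91% higher. The median ezetimibe difference of the 13 was -0.02. The lower 2, chosen after their values were seen, were G6pc, the catalytic subunit of glucose 6-phosphatase that acts with Slc37a4, at -0.72 ± 0.30, and Mlxipl, the carbohydrate response factor ChREBP, at -0.49 ± 0.18.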

How the data were processed

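Liver RNA of 32 mice was measured on Illumina bead arrays, 1 liver per array, in 4 groups of 8 taken from the labels. The livers were individual, so p-values measure the spread between animals and arrays together. The authors deposited a bead intensity per probe for 25697 probes, not normalised between arrays and with a background level already subtracted, since values below 0 occur. Beside it the authors deposited a detection value, a fraction between 0 and 1, and its complement was read as the detection p. The authors also deposited log2 values of 15505 probes, for which the submitters' processing notes name limma, and these served as an alternative. How the background was subtracted and how those probes were selected are not given in the sources used here.

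Intensities were corrected with limma's normal-exponential model by detection p (offset 16), quantile normalised and log2 transformed in R 4.3.3 with limma 3.58.1. A detection p under 0.05 on 8 or more arrays was required, which kept 12844 probes, of which 12026 had 1 gene symbol, 0 several and 818 none here. Symbols came from the platform annotation, updated by Entrez ID for 14548 of 14557 named probes. The brightest probe stood for each of the 2283 genes with several, which left 8854 genes. Of the members, 45 had more than 1 kept probe.

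Group means were modelled by lmFit and eBayes of limma over the 32 arrays (28 residual degrees of freedom), with 9 contrasts and an F-test over groups, each adjusted by Benjamini-Hochberg over all genes at 0.05. Chips were tested with an F-test beside group. The scripts were tested on simulated data. The mean intensity per array lay between 126 and 280, and precision is limited by the number of arrays.

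The members, substrate classes, marker lists and liver transporters were chosen with earlier results of these data known. The rule named members past the threshold, up to 2 per class with the smallest p under 0.05 in 5 comparisons, the listed liver transporters, the 2 most variable per class and the 5 with the smallest p between chips. Some genes are not reported here. Alternatives were no background correction, equal medians, cyclic loess, the deposited log2 values, no or a stricter filter (detection p under 0.01 on 16 arrays), the mean of all probes, chip as a block, fixed or random, position on the chip, replicate number, array weights, a variance trend, only the groups compared, without the 4 arrays of lowest correlation, and each array left out. Promoters came from RefSeq's table for GRCm38.p6.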

Additional observations from a re-analysis of the deposited data

Results flagged for a closer look

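Dixon's gap test for groups of 8 livers, at its critical value for 95% confidence, picked out 1 liver in 17 of 304 tests (76 named members in 4 groups). Chance picks out about 1 group in 20, so this number is near what chance gives.

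In HC+RSV+EZE, replicate 1 had the highest Slc30a10, 6.79 with the next liver at 5.74. Replicate 5 had the lowest Slc46a3, 9.54 with the next at 10.06, and the lowest Slc25a13, 4.58 with the next at 5.50. In HC+EZE, replicate 1 had Slco1b2 at 11.04 with the next liver at 9.80, replicate 5 had the dicarboxylate carrier Slc13a3 at 7.67 with the next at 6.85, and replicate 6 had Slc17a6 at 4.78 with the next at 4.54.

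Replicate 3 of HC+RSV, the array of lowest correlation, gave 5 of the 17. It was highest in Slc17a4 at 8.75 (next 7.83), in Slc6a12 at 11.36 (next 10.31), in Slc25a15 at 10.93 (next 9.83), in the mitochondrial carrier Slc25a30 at 7.01 (next 6.02) and in Slc19a2 at 11.28 (next 9.62). Replicate 1 of HC+RSV was highest in Slc17a8 at 7.09 (next 6.05) and in Slc25a1 at 10.28 (next 9.82), and replicate 6 in Slc24a3, a sodium calcium exchanger, at 6.13 (next 5.55).

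In HC, replicate 1 was highest in Slc66a2 at 11.07 (next 10.72), and replicate 5 was highest in Slc25a34 at 5.27 (next 4.74) and in Slc25a20 at 11.22 (next 10.57).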

How the results depend on the processing

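The ezetimibe count of 1 member became 2 with equal medians (Slc30a10 and Slc45a3), 3 with chip as a fixed or as a random block (Slc5a6, Slc30a10 and Slc45a3), 4 with array weights (these and Slc46a3), 2 without the 4 arrays of lowest correlation (Slc5a6 and Slc46a3), 5 without them and with chip as a block (Slc5a6, Slc30a10, Slc45a3, Slc46a3 and Slc23a2), and 0 with array position as a covariate. Over all 8854 genes, where 30 passed, the calls in these fits were 43 with equal medians (5 higher and 38 lower, against 12 and 18), 89 with the fixed and 67 with the random chip block, 49 with array weights, 26 without the 4 arrays, 109 without them and with chip, and 0 with position. Leaving out each array in turn gave 1 to 4 members, with 4 without replicate 8 of HC or of HC+RSV, and 2 without 7 other arrays (HC+RSV+EZE 1 and 5, HC+EZE 6 and 8, HC+RSV 1, 6 and 7). Slc5a6 stayed between 0.52 and 0.62 and passed each time. The F-test over groups called 0 members, but 2 with chip as a fixed block on all arrays or without the 4, 1 with chip as a random block, with array weights or without the 4 arrays and no chip term, and 0 to 1 with each array left out. Over all genes that test called 19, against 48 and 58 with the fixed chip block, 28 with the random block, 22 with array weights and 17 without the 4 arrays. Slc5a6 was the 1 call with array weights for HC+RSV+EZE over HC+RSV and for HC+EZE over HC+RSV, and for the first of these also without the 4 arrays and with a chip block. The count of members that differed between chips was 57 (31.7%, against 26.1% of all genes) without the group term and 80 (44.4%, against 41.7%) without the 4 arrays.

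The replicate numbers were not taken as pairs, since not every same-numbered pair of arrays correlated above 0.1. Deviations of same-numbered arrays correlated between -0.24 and 0.76 (median 0.17), and those of differently numbered arrays had a median of -0.06. Set only against arrays of the other groups, 7 of 32 arrays correlated best with 1 of the 3 others of their own number. Odd numbers lie on chips 1, 3 and 4 and even numbers on chips 2, 5 and 6, so the numbers share the split between chips. With the replicate block 2 members were called in the ezetimibe comparison, Slc5a6 and Slc30a10, with 53 of all genes, and 1 over the groups, with 20 of all genes.

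Position fixes ezetimibe, since A to C held only livers without it and F to H only livers with it. The covariate entered as a straight line over position, so this fit cannot separate position from ezetimibe. In it the SE of the Slc5a6 ezetimibe difference was 0.64, and the SEs of the Slc30a10 differences below ran from 1.18 to 1.47. Signs turned for the ezetimibe differences of Slc5a6 (-0.37), Slc66a2 (0.67), Slc30a10 (2.55), Slc25a11 (-0.049), Slc17a4 (0.99), Slc17a8 (0.96), Slc45a3 (0.49) and Slc2a9 (-0.79). For HC+EZE over HC they turned for Slc66a2 (0.59), Slc30a10 (2.48), Slc17a8 (0.83), Slc45a3 (0.52) and Slc5a6 (-0.36). For HC+RSV+EZE over HC they turned for Slc66a2 (0.77), Slc30a10 (3.43), Slc25a34 (-0.48), Slc17a8 (1.20), Slc45a3 (0.75), Slc2a9 (-0.91) and Slc5a6 (-0.68). For HC+RSV+EZE over HC+RSV they turned for Slc30a10 (2.61), Slc25a14 (-0.15), Slc17a4 (0.88), Slco2a1 (1.09), Slc45a3 (0.46) and Slc5a6 (-0.38). Slc25a11 also turned with equal medians (-0.024). The interaction on Slc5a6 was 0.00062 with chip as a block, 0.048 with array weights and -0.147 to 0.062 with each array left out. The cause was not tested.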
